A study of Mus musculus with 6 samples.

Results

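Photoreceptor ribbon synapse genes build the terminal through which rods and cones release glutamate onto horizontal and bipolar cells, and they are described here in adult mouse retina with and without Onecut2. The members were 10 genes chosen by name: Ctbp2, Bsn, Pclo, Cacna1f, Cacna2d4, Cacnb2, Cabp4, Rims2, Elfn1 and Egflam. All probe sets that the platform annotation assigned to one of these symbols alone were taken, which gave 23 of the 45037 probe sets that are not controls. The tissue was whole retina, hybridised to 6 Affymetrix GeneChip arrays for the mouse genome. Of these, 3 came from adult OC2-KO mice, which carry a null allele of the transcription factor gene Onecut2, and 3 from adult wildtype littermates (OC2-WT). Exact ages, the strain background and the number of retinas behind each array were not given in the sources used here. By the study's account a substantial share of OC2-KO mice die soon after birth, so adult OC2-KO retinas come from survivors.

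Onecut2 is made in horizontal cells and their precursors, and horizontal cell processes end deep inside the photoreceptor terminal, beside the ribbon. The ribbon is a protein plate that tethers synaptic vesicles close to the calcium channels, so that release can follow small changes in voltage without pause. Its core protein RIBEYE comes from Ctbp2, Bassoon anchors it to the membrane, and the channel Cav1.4 lets in the calcium that drives release. In people, mutations in CACNA1F, CABP4 or CACNA2D4 impair transmission from photoreceptors to the cells they contact. The comparison asks whether the transcripts of this terminal differ when Onecut2 is absent. Bipolar cells also hold ribbons and amacrine cells also use Bassoon, Piccolo and RIM proteins, so a whole-retina value is not that of photoreceptors alone. In such bulk samples, fewer cells of a type and less RNA per cell cannot be told apart.

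Promoter sequences are shown for Ctbp2, which has separate start sites, and for the members with a match to a motif of interest. RefSeq windows of GRCm38.p6, from 250 bases before to 50 bases after each start, were given for 7 of the 10 genes, as 10 windows. They were searched on both strands for TAATCC, the core bound by the photoreceptor factor CRX, and for ATCGAT and ATTGAT, cores bound by Onecut factors. The Onecut cores can share their end letters, and no member window held both. TAATCC or its reverse GGATTA stood in 7.06% of all 32851 windows, ATCGAT, which reads the same on both strands, in 0.925%, and ATTGAT or its reverse ATCAAT in 7.54%. Among the member windows, 1 held the CRX core, 1 held ATCGAT, and both overlapping Egflam windows, whose starts lie 5 bases apart, held the same ATTGAT. The windows of Bsn, Pclo, Elfn1 and Cacnb2 held none of these letters. Capitals mark the matches below, and each sequence runs 5′ to 3′ on the strand of its gene.
Ctbp2, upstream start, chr7:133081811-133082110, minus strand: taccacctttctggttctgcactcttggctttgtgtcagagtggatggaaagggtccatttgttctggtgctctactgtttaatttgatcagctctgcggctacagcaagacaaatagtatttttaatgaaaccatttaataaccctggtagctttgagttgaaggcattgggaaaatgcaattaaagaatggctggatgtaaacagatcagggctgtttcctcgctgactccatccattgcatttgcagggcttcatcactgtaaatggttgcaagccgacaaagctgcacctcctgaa
Ctbp2, downstream start, chr7:133015198-133015497, minus strand: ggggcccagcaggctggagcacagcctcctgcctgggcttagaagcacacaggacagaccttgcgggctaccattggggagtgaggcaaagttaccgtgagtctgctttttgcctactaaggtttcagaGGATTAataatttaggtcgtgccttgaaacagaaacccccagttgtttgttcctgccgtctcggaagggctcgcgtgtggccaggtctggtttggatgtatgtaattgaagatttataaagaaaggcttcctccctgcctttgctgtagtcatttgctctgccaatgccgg
Cacna1f, chrX:7606853-7607152, plus strand: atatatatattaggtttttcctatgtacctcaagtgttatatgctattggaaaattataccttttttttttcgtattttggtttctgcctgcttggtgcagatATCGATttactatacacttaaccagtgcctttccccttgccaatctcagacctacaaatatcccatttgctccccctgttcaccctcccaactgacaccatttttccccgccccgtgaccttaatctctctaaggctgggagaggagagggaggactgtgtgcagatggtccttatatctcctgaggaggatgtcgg
Egflam, chr15:7398346-7398645, minus strand: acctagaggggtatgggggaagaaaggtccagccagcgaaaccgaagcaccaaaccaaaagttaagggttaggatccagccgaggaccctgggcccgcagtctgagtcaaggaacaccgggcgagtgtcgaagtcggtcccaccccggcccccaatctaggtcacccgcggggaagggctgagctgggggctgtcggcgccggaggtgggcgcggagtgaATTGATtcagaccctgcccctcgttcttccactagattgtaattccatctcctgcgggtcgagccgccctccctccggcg
The 2 Ctbp2 windows are shown because the gene is read from separate starts, 66613 bases apart on GRCm38.p6. It is known for 2 kinds of product, the corepressor CtBP2 of many tissues and RIBEYE, which is made from a start within the gene. The downstream window carried the CRX core at position -121, counted from the start, and the upstream window carried none. Which of these starts makes which product was not given in the sources used here, nor which start feeds which probe set. The Ctbp2 values below may thus hold both products. ATCGAT stood at position -147 before Cacna1f and ATTGAT at position -30 before Egflam, and these are matches of letters and not binding sites shown by data.

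The values are log2 MAS5 intensities, and a probe set was tested where the mean of either genotype exceeded 7. Of the 23 member probe sets, 19 passed, at least 1 for each of the 10 genes, and these had a genotype mean of 8.05 or more. No member probe set passed the test for a difference between OC2-KO and OC2-WT. With limma, 0 of 19 had an adjusted p under 0.05, where the share over all 21176 probe sets tested was 0%, and every member's adjusted p was 1.00. At an unadjusted p under 0.05 the count was again 0, against 0.987% of all probe sets, and the smallest unadjusted member p was 0.164 for Pclo. The OC2-KO and OC2-WT arrays overlapped in each of the 19, where 3.28% of all probe sets had genotypes that did not overlap, 1.72% with OC2-KO higher and 1.56% with OC2-KO lower. Without the 2 arrays of number 2, 6 of the 20 member probe sets that then passed the filter did not overlap, beside 20.9% of all probe sets, and without OC2-KO replicate 2 it was 4 of 19, beside 15.4%. The median log2 difference, OC2-KO minus OC2-WT, was -0.05 over the members and -0.0084 over all probe sets tested. The members ran from -0.43 to 0.15, with 7 above and 12 below 0, and 17 of 19 (89.5%) lay within 0.3 of 0, beside 81.6% of all probe sets. The 95% interval of the difference lay inside a log2 difference of 1 in either direction, that is a 2-fold change, for 14 of 19 probe sets. The median half-width of that interval, which is not adjusted for the number of probe sets, was 0.64. Differences well under that size were thus not detectable with 3 arrays per genotype, even unadjusted. The adjusted test missed far larger ones. The 3 Onecut2 probe sets, described below and kept only through their OC2-KO means, differed by 2.27 to 2.84 with adjusted p of 0.21 to 0.559 (limma). The absence of adjusted calls therefore sets no narrow bound on the members' differences.

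**Figure D1:**
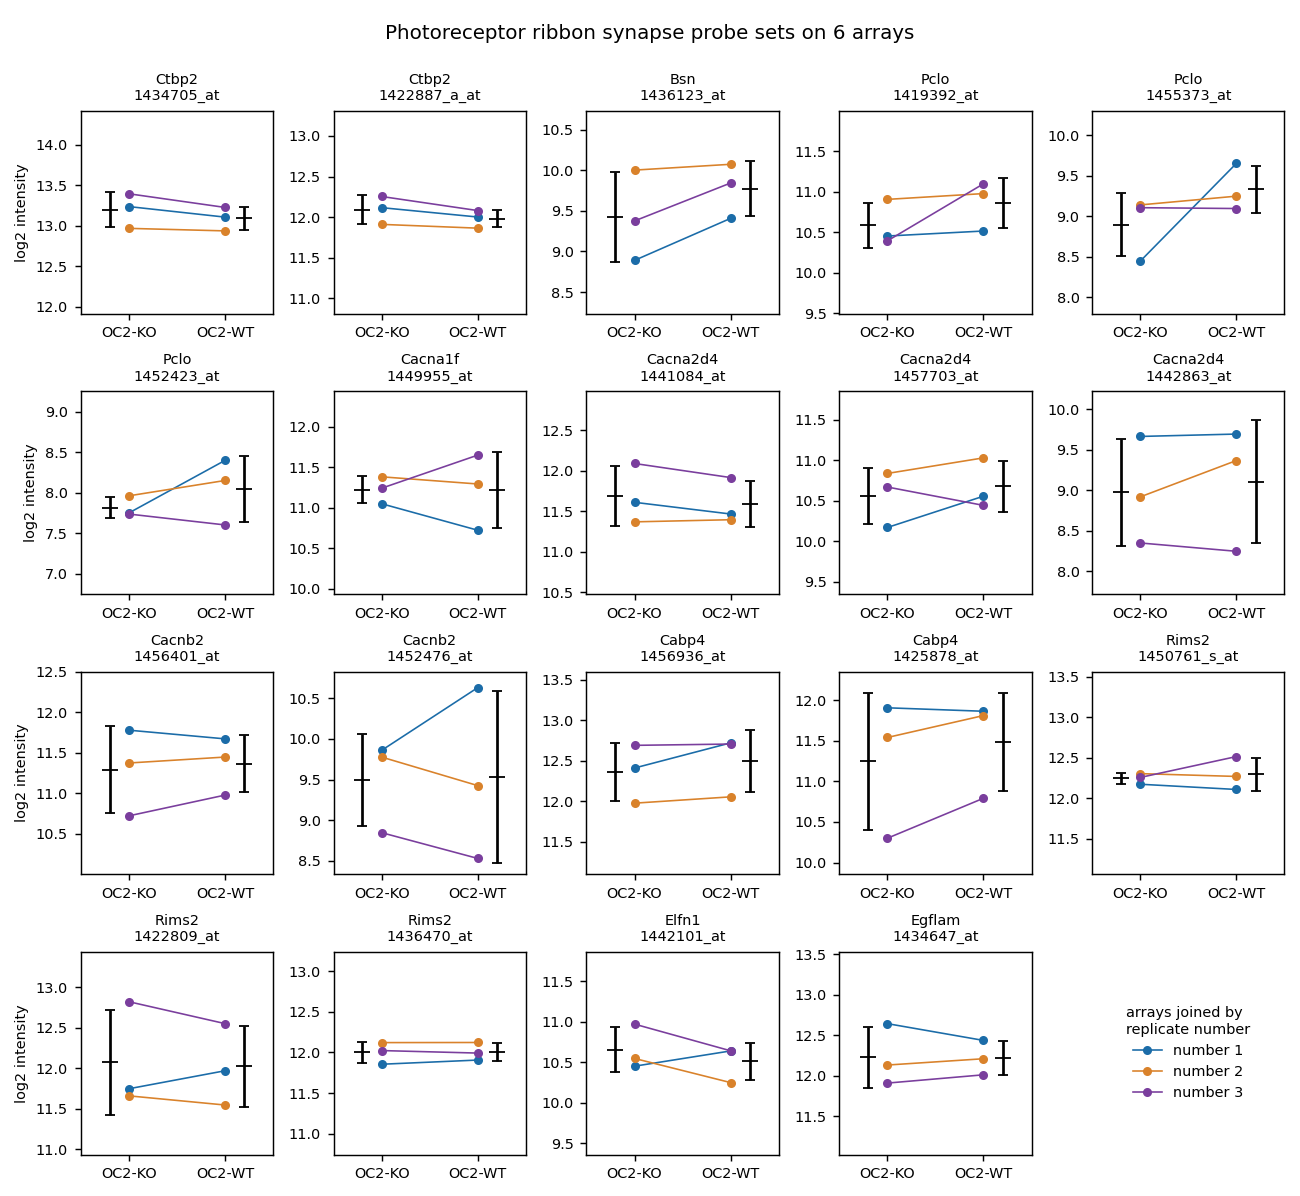
Log2 intensity (vertical axis, each panel spanning the same height) of the 19 tested probe sets on each array, OC2-KO left and OC2-WT right, with lines joining arrays of the same replicate number and black bars for mean and SD of 3 arrays. The genotypes overlap in every panel, and lines of the same number often stay together, as in Cabp4 1425878_at, where number 3 lies at 10.30 in OC2-KO and 10.79 in OC2-WT.

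Arrays carry replicate numbers 1 to 3 in each genotype, and arrays of the same number varied together over all probe sets, so they are called pairs. Arrays of number 3 stood apart in the 3′ bias of their control probe sets, a measure of RNA quality. The log2 excess of the 3′ over the 5′ control probe set of Actb was 3.39 in OC2-KO and 2.95 in OC2-WT at number 3, and lay between 0.71 and 1.41 on the other 4 arrays. By Xist and Y-linked transcripts, numbers 1 and 2 matched in sex within each pair, while number 3 joined a male OC2-KO with a female OC2-WT pattern. Onecut2 itself was higher in all OC2-KO arrays on its 3 probe sets, by 2.27 to 2.84 on the log2 scale (limma, adjusted p of 0.21 to 0.559). All 3 passed the filter only through OC2-KO, with means of 8.72 to 8.94 there and 6.10 to 6.61 in OC2-WT. The direction of these probe sets was thus fixed by their selection. Per the study these probes lie at the 3′ end of the gene, which the knockout leaves in place, so they do not check the loss of the protein. The study reports this rise from its own arrays, so the values follow the labels but are no independent check of them. By its account, with data not shown, qPCR of the 5′ coding sequence found almost none, and staining found no OC2 protein. Of the rod markers, 8 of 8 genes passed the filter, with log2 differences from 0.01 to 0.59, a median of 0.10 and none past the test, and their summed log2 level ran from 17.14 to 18.61 in OC2-KO and from 17.27 to 18.85 in OC2-WT. The 7 cone markers all lay above 0, by a median of 0.29, where 51.2% of all genes lay below 0. Of the 7, 5 were higher in 3 of 3 pairs, beside 10.3% of all probe sets. Among these Pde6c (0.82) and Gnb3 (0.53) had unadjusted p values of 0.0407 and 0.0446 and adjusted p values of 1.00 (limma). Over all genes 0.985% had an unadjusted p under 0.05. The summed cone level was 15.63 to 16.30 in OC2-KO and 15.48 to 16.13 in OC2-WT. The part of this in the members' values was not tested. The 5 measured horizontal cell markers differed by a median of -0.57, with summed log2 levels of 12.85 to 13.32 in OC2-KO and 13.61 to 13.81 in OC2-WT, and Lhx1 lay below the filter. Of the 5, Onecut1 passed the filter only through OC2-WT, which fixed its direction.

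Ctbp2 encodes the ribbon's structural protein. On 1434705_at, its brighter probe set, log2 intensities were 13.24, 12.97 and 13.39 in OC2-KO and 13.11, 12.94 and 13.23 in OC2-WT. The difference was 0.11 ± 0.22 (SE), or 1.08-fold with a 95% interval of 0.757 to 1.54 (limma, adjusted p = 1.00). On 1422887_a_at the values were 12.12, 11.91 and 12.25 in OC2-KO and 12.00, 11.86 and 12.08 in OC2-WT, again a difference of 0.11 ± 0.21 (SE). The genotypes overlapped on both, yet OC2-KO was above OC2-WT in each pair. The within-pair differences were 0.13, 0.03 and 0.17 on the first probe set and 0.12, 0.05 and 0.17 on the second. The 2 probe sets thus returned the same small excess, and they share their RNA samples and are not independent. These 2 made up all members that were higher in 3 of 3 pairs, 10.5% of 19, where 10.3% of all probe sets were, so the count is at the background.

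Bsn and Pclo encode Bassoon and Piccolo, the giant scaffold proteins of the presynaptic active zone, of which Bassoon holds the ribbon in place. Bsn on 1436123_at stood at 8.89, 10.003 and 9.38 in OC2-KO and at 9.41, 10.07 and 9.84 in OC2-WT. The difference was -0.35 ± 0.34 (SE), with within-pair values of -0.52, -0.07 and -0.47. All 3 pairs placed OC2-KO below OC2-WT, and the range of the OC2-KO arrays still covered most of the OC2-WT range. With the replicate number as a block in the fit, Bsn had the smallest unadjusted p of any member, 0.0896 (limma), and an interval of -0.78 to 0.08.

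Piccolo gave the largest difference in the set. On 1419392_at, the brightest of 3 Pclo probe sets, log2 intensities were 10.45, 10.91 and 10.39 in OC2-KO and 10.52, 10.98 and 11.10 in OC2-WT, a difference of -0.28 ± 0.26 (SE). Most of it came from number 3, since the pairs differed by -0.06, -0.07 and -0.70. On 1455373_at OC2-KO arrays had 8.44, 9.14 and 9.10 and OC2-WT arrays 9.65, 9.25 and 9.09, a difference of -0.43 ± 0.28 (SE) with an unadjusted p of 0.164 and an adjusted p of 1.00 (limma). Here the difference came from number 1, with pairs at -1.21, -0.11 and 0.01. The third probe set, 1452423_at, differed by -0.23 ± 0.26 (SE), with pairs at -0.65, -0.19 and 0.13. All 3 probe sets were lower in the OC2-KO mean, but the pair that carried the difference was not the same, and no probe set passed the test. Over all members, those lower in 3 of 3 pairs were Bsn 1436123_at, Pclo 1419392_at and Cabp4 1456936_at, which is 15.8% of 19 beside 12.4% of all probe sets.

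The calcium channel of the terminal is built from the pore subunit Cav1.4 (Cacna1f), the auxiliary subunits α2δ-4 (Cacna2d4) and β2 (Cacnb2), and the calcium sensor CaBP4 (Cabp4), which lets the channel open at less depolarised voltages. Cacna1f, on the X chromosome, had a single probe set, 1449955_at. Its log2 intensities were 11.05, 11.38 and 11.24 in OC2-KO and 10.72, 11.29 and 11.65 in OC2-WT. The mean was 11.23 ± 0.17 in OC2-KO and 11.22 ± 0.47 in OC2-WT (SD, n = 3 each), a difference of 0.0024 ± 0.28 (SE), or 1.00-fold with an interval of 0.63 to 1.59. The near-zero mean hid pairs that differed by 0.33, 0.09 and -0.41. The OC2-WT arrays spanned the wider range, and the OC2-KO arrays lay inside it.

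Cacna2d4 was read by 3 probe sets. On the brightest, 1441084_at, log2 intensities were 11.61, 11.37 and 12.09 in OC2-KO and 11.47, 11.40 and 11.92 in OC2-WT, a difference of 0.10 ± 0.27 (SE). The others differed by -0.12 ± 0.27 (SE) on 1457703_at and by -0.12 ± 0.47 (SE) on 1442863_at. Their directions were mixed, and none exceeded the spread of its own replicates. Cacnb2 stood at 11.78, 11.37 and 10.72 in OC2-KO and at 11.67, 11.45 and 10.98 in OC2-WT on 1456401_at, a difference of -0.07 ± 0.33 (SE). On 1452476_at the Cacnb2 difference was -0.03 ± 0.55 (SE), the widest error among the members, and OC2-WT ran from 8.53 to 10.63.

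Cabp4 on 1456936_at had log2 intensities of 12.41, 11.98 and 12.69 in OC2-KO and 12.72, 12.06 and 12.71 in OC2-WT, a difference of -0.13 ± 0.29 (SE), or 0.911-fold. On 1425878_at it had 11.91, 11.54 and 10.30 in OC2-KO and 11.87, 11.81 and 10.79 in OC2-WT, a difference of -0.24 ± 0.48 (SE). The arrays of number 3 were the lowest of both genotypes on the second probe set and were not the lowest of either on the first. The genotypes overlapped on both, and the interval of the brighter probe set ran from 0.565-fold to 1.47-fold.

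Rims2 encodes RIM2, an active zone scaffold that in mouse rods promotes calcium entry through Cav1.4. On 1450761_s_at log2 intensities were 12.17, 12.30 and 12.26 in OC2-KO and 12.11, 12.27 and 12.51 in OC2-WT, a difference of -0.05 ± 0.21 (SE). Probe set 1436470_at gave 11.85, 12.12 and 12.02 in OC2-KO and 11.91, 12.12 and 11.99 in OC2-WT, a difference of -0.0074 ± 0.20 (SE), the smallest error of any member. Its pairs stayed within 0.052 of 0, and its interval in fold terms was 0.717 to 1.38. The third, 1422809_at, differed by 0.05 ± 0.40 (SE), and its number 3 arrays stood highest in each genotype, at 12.82 in OC2-KO and 12.55 in OC2-WT. All 3 RIM2 probe sets had differences well inside their errors.

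Elfn1 and Egflam encode proteins that the terminal presents to its partners. ELFN1 is an adhesion protein through which rods hold the receptor mGluR6 on rod bipolar dendrites, and pikachurin, from Egflam, is a matrix ligand of dystroglycan in the cleft. Elfn1 on 1442101_at had log2 intensities of 10.45, 10.55 and 10.97 in OC2-KO and 10.64, 10.25 and 10.64 in OC2-WT. Its difference of 0.15 ± 0.24 (SE) was the highest of the set, and the pairs were at -0.19, 0.30 and 0.33. Egflam on 1434647_at had 12.64, 12.13 and 11.91 in OC2-KO and 12.44, 12.21 and 12.01 in OC2-WT. The mean was 12.23 ± 0.38 in OC2-KO and 12.22 ± 0.21 in OC2-WT (SD, n = 3 each), a difference of 0.01 ± 0.26 (SE). Neither gene separated the genotypes, and both had intervals that reached to either side of 0.

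**Figure D2:**
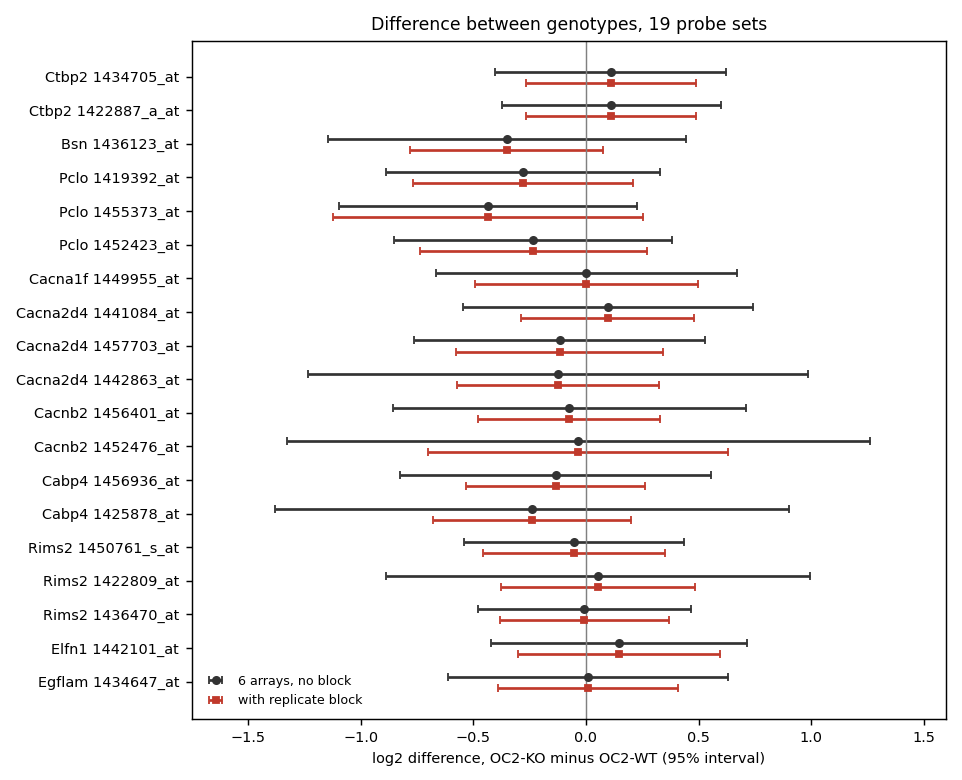
Log2 difference, OC2-KO minus OC2-WT (horizontal axis), with its 95% interval for each of the 19 probe sets (rows), from the fit on 6 arrays (black) and from the fit with the replicate number as a block (red). Every interval crosses 0, and the median half-width is 0.43 with the block and 0.64 without it.

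Since the replicate numbers pair the arrays, the differences were also fitted within pairs. Adding the number as a block narrowed the median half-width of the intervals to 0.43, and 18 of 19 then lay inside a log2 difference of 1 in either direction. Pclo 1455373_at was the exception, with a lower bound of -1.12. Still 0 members had an unadjusted p under 0.05 in the blocked fit, where 4.19% of all probe sets did, and 0 an adjusted one.

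Replicate number, rather than genotype, accompanied most of the variation of these genes. The number took more of the sum of squares than the genotype in 18 of 19 probe sets (94.7%), beside 90.3% of all probe sets, so this was shared with the array as a whole. The number has 3 levels and the genotype 2, so scatter alone gives the number the larger share more often. The median share taken by the number was 85.0% for the members and 71.0% for all probe sets, and the median share taken by the genotype was 4.34% for the members and 5.003% for all. The exception was Pclo 1455373_at, with 2.88% by number and 37.5% by genotype. The level at number 3 minus the mean level of numbers 1 and 2 was above 0.5 on the log2 scale for 2 of 19 members (10.5%) and below -0.5 for 4 of 19 (21.1%), where 13.9% and 16.8% of all probe sets lay.

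Probe sets of the same gene moved apart at number 3. For Cabp4 the log2 difference of number 3 from numbers 1 and 2 was -1.24 on 1425878_at and 0.41 on 1456936_at. For Cacna2d4 the 3 probe sets gave 0.54, -0.09 and -1.11. Rims2 gave 0.95 on 1422809_at, 0.17 on 1450761_s_at and 0.0064 on 1436470_at. Cacnb2 gave -0.72 and -1.24, and Ctbp2 gave 0.25 and 0.19, so in these genes the probe sets stood on the same side of 0. The Pclo probe sets gave 0.03, -0.02 and -0.40. The level of Cabp4 or Cacna2d4 at number 3 could thus be read as higher or as lower by the choice of probe set. The genotype difference varied by at most 0.222 between the tested probe sets of any member gene, those below the filter not counted. The raised 3′ over 5′ control difference of number 3 moved with this pattern, and its part in it was not tested. Against numbers 1 and 2, the median at number 3 was 0.97 for rod markers, 1.28 for pigment epithelium markers and -1.70 for lens markers, whose 4 genes ran from -2.72 to -1.02. The summed lens level was 14.88 to 15.51 in OC2-KO and 12.25 to 15.75 in OC2-WT. Number 3 was not alike in its 2 arrays, since OC2-KO exceeded OC2-WT there by a lens median of 2.67. In pairs 1 and 2 the lens median differed by -0.61 and 0.87. The part of these markers in the pattern was not tested either.

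**Figure D3:**
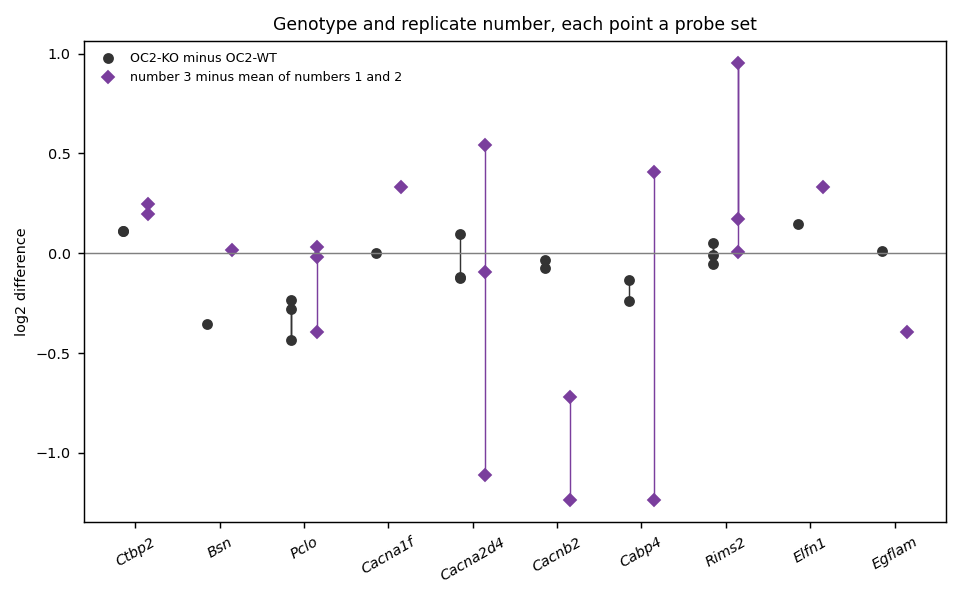
Log2 differences (vertical axis) for each member gene (horizontal axis), with a point per tested probe set: OC2-KO minus OC2-WT in black, and number 3 minus the mean of numbers 1 and 2 in purple. Black points lie between -0.43 and 0.15, and purple points between -1.24 and 0.95.

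The 4 member probe sets below the filter were not tested. Rims2 1443215_at lay just under it, with genotype means of 6.25 in OC2-KO and 6.99 in OC2-WT, and its arrays read 5.18, 7.15 and 6.43 in OC2-KO and 6.91, 6.63 and 7.43 in OC2-WT. Rims2 1432102_at lay between 4.65 and 5.34 on all arrays. Bsn 1450467_at scattered from 2.23 to 7.28, and Bsn 1422023_at lay between 1.64 and 3.60. Both had the higher mean in OC2-KO, by 0.77 and 0.83, opposite to the tested Bsn probe set. At these low intensities Bsn 1422023_at was higher in 3 of 3 pairs, and its genotypes did not overlap. The passing probe sets of Rims2 and Bsn are those described above.

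The other genes of the terminal and its partners were taken as 5 lists, each gene by its brightest probe set, 47 genes in all. None had an adjusted p under 0.05 (limma), and 2 had an unadjusted p under 0.05, where 0.985% of all 11065 genes did. The 10 genes of the active zone and ribbon differed by a median of -0.03, with 4 higher and 6 lower and 0 of 10 at an unadjusted p under 0.05. Those with the smallest p were Elfn2 (-0.32), a relative of Elfn1, the priming factor gene Unc13a (0.24), the kinesin gene Kif3a (-0.29), whose product is found at the ribbon, and the active zone scaffold gene Erc1 (0.25). The vesicle and fusion genes, 11 of them, differed by a median of 0.07, with 7 higher and 4 lower. Stx3, the syntaxin of ribbon synapses, differed by 0.24, the vesicle protein gene Sv2b by 0.19, Cplx4, a complexin of photoreceptor terminals, by 0.19, and the calcium sensor gene Syt1 by 0.15. None of the 7 dystroglycan and scaffold genes had an unadjusted p under 0.05 either, and their median was 0.0055. Among them were the scaffold gene Dlg4 (-0.26), the dystrophin gene Dmd (0.24), and Pomgnt1 (0.05) and Pomt1 (0.06), which help build the sugar chains that pikachurin binds on dystroglycan. The median over all genes was -0.0048.

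The list of other calcium channel subunits and calcium sensors held both genes with an unadjusted p under 0.05, and all 10 measured genes lay below 0, where 51.2% of all genes did, with a median of -0.23. The nearest to 0 were Cacnb1 (-0.015) and Atp2b1 (-0.0042), picked out after their values were seen. Beside this list, markers of horizontal cells had a median of -0.57 with 5 of 5 lower, those of bipolar cells -0.31 with 4 of 5 lower, and those of amacrine cells -0.10 with 4 of 5 lower. Of these, the horizontal marker Onecut1 and the amacrine marker Th passed the filter only through OC2-WT, which fixed their direction. Their means were 5.56 and 6.71 in OC2-KO and 7.36 and 7.10 in OC2-WT. The study names Calb1, Septin4 and Pcp2 as lower from these same arrays, so their values are no separate support. The part of all these markers in the list values was not tested, and Cabp5 belongs to both this list and the bipolar markers. Cacna2d3 encodes α2δ-3, a relative of the α2δ-4 subunit of photoreceptors. It had log2 intensities of 10.95, 10.96 and 11.19 in OC2-KO and 11.25, 11.84 and 11.79 in OC2-WT on 1419225_at, a difference of -0.59 ± 0.24 (SE) with an unadjusted p of 0.0432 and an adjusted p of 1.00 (limma). The OC2-KO arrays all lay under the OC2-WT arrays, but only by 0.059 at the nearest. Cacna1c, the pore of Cav1.2, had 6.07, 6.67 and 6.49 in OC2-KO and 7.01, 7.52 and 7.17 in OC2-WT on 1435730_at, a difference of -0.82 ± 0.25 (SE) with an unadjusted p of 0.0140 and an adjusted p of 1.00 (limma). This probe set passed the filter only through OC2-WT, and a second one below the filter had a higher OC2-KO mean. Next by p came Cabp5 (-0.57), a calcium sensor of bipolar cells, and Cacna2d1 (-0.62). With the replicate block Cabp5 had an unadjusted p of 0.0110 (limma, adjusted p 0.999) and was lower in 3 of 3 pairs. Without OC2-WT replicate 2 neither gene had an unadjusted p under 0.05, the count over the 5 lists being 0, and with the replicate block that count was 4. On leaving out single arrays, Cacna2d3 kept its call only without OC2-WT replicate 1, and Cacna1c lost its call only without OC2-WT replicate 2. Cacna2d3 also lost its call without a filter, under median centring, with a sex term, and without number 2 or number 3. Without number 2 Cacna1c lost its call too, and a filter at 8 left it untested. With an intensity trend, robust or not, Cacna1c lost its call and Cacna2d3 alone had an unadjusted p under 0.05. Whether these genes differ from the members in their response was not tested.

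Across the cleft, the 9 measured partners on ON bipolar cells differed by a median of -0.26, with 1 higher and 8 lower and 0 at an unadjusted p under 0.05. Gpr179, an orphan receptor that anchors RGS proteins in the mGluR6 cascade, differed by -1.67 ± 0.73 (SE) with an unadjusted p of 0.0538 and an adjusted p of 1.00 (limma). Its log2 intensities were 4.83, 6.94 and 4.57 in OC2-KO and 6.18, 7.04 and 8.14 in OC2-WT, so it too passed the filter only through OC2-WT, and the genotypes overlapped. With the replicate block its unadjusted p was 0.0397 (limma, adjusted p 0.999), its interval ran from -3.24 to -0.11, and it was lower in 3 of 3 pairs. Nyx, for nyctalopin, differed by -0.38, Rgs7bp, whose product anchors RGS7, by -0.30, and Gnao1, for the G protein α subunit of the cascade, by -0.25. Markers of bipolar cells stood beside these values, with 4 of 5 genes lower and a median of -0.31, summed log2 levels of 13.99 to 14.39 in OC2-KO and 14.33 to 14.69 in OC2-WT. Trpm1 (0.08) belongs to both lists and was the only gene above 0 in each. Over all genes, 51.2% lay below 0. Whether the bipolar markers have a part in these values was not tested.

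**Figure D4:**
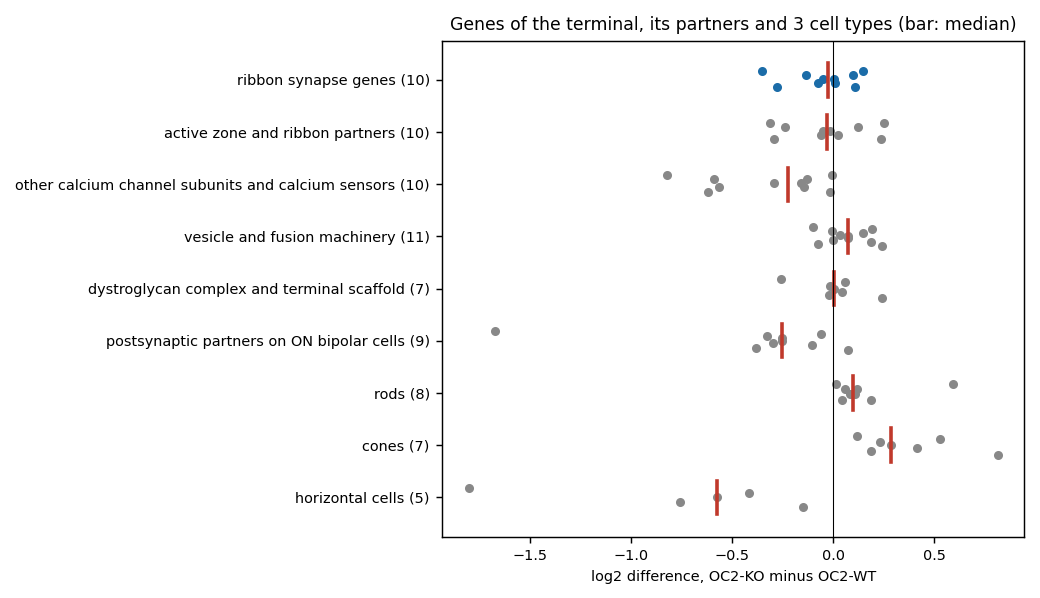
Log2 difference, OC2-KO minus OC2-WT (horizontal axis), of each gene by its brightest probe set, for the 10 ribbon synapse genes, 5 lists of the terminal and its partners and 3 marker lists (rows, number of genes in parentheses), with red bars for medians. The ribbon synapse genes gather about a median of -0.03, while the horizontal cell markers have a median of -0.57.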

How the data were processed

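Total RNA of adult retina from 3 OC2-KO and 3 OC2-WT samples was amplified, labelled and hybridised by the authors, 1 array per sample. The deposited values are linear intensities, background-adjusted and normalized by the authors with MAS5 (version not given in the sources used here). Their 2% trimmed mean was 499.8 to 499.9 on every array, so a difference shared by all genes cannot show. Of the probe sets, 34945 had 1 symbol in the platform annotation and 932 had several, of which 0 named a member. After log2 transformation of the deposited intensities, 64 control probe sets were left out and the 21176 with a mean above 7 in either genotype were kept, as in the study's methods. OC2-KO was compared with OC2-WT on all 6 arrays with limma 3.58.1 in R 4.3.3, two-sided, adjusted by Benjamini-Hochberg over all probe sets kept, at a threshold of 0.05. This left 4 residual degrees of freedom, and precision is limited by the number of arrays. The labels name littermates but not which array came from which animal, so p-values reflect only the scatter of these arrays, part of which may be technical.

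Genotypes came from the labels. Over all probe sets kept, deviations from the genotype mean correlated between same-numbered arrays (0.576, 0.590 and 0.585) and ran from -0.429 to -0.135 otherwise. The numbers were therefore treated as pairs, on the evidence of the data alone. The members and gene lists were chosen with earlier results of these data known. Named genes were every member probe set and, from each list of the terminal and its partners, up to 4 genes by smallest limma p. Pde6c and Gnb3 were named after their values were seen. The fit was tested on simulated data whose arrays were independent. Such data lack the pairing of these arrays, so that test does not cover how the fit without a block handles it. Shares of variance are sums of squares by number and by genotype. Promoter windows came from RefSeq (GRCm38.p6).

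The alternatives varied the filter (none, or 8), the normalization (quantile or median centring), the variance model (intensity trend, robust trend or array weights), a floor at 6, the test (the methods' t-test), and the terms (replicate block or sex). Single arrays and both arrays of number 3 were also left out. A blocked fit with a trend, and leaving out both arrays of number 1 or number 2, were chosen after seeing the data, as were, for the other terminal genes, the variance models, floor, t-test and sex term.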

Additional observations from a re-analysis of the deposited data

How the results depend on the processing

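No member probe set passed an adjusted p of 0.05 under any of the 21 settings tried, and the lowest adjusted p of a member was 0.998 (limma). Of 399 recomputed member differences, 357 kept their sign and 42 did not, 24 of these from leaving out a single array. The 2 Ctbp2 probe sets, the tested Bsn probe set and the 3 Pclo probe sets kept their sign throughout, while the other 13 turned at least once. Even so, leaving out single arrays gave 0.012 to 0.23 and 0.032 to 0.20 for Ctbp2 1434705_at and 1422887_a_at, -0.64 to -0.086 for Bsn, and -0.45 to -0.16, -0.56 to -0.21 and -0.46 to -0.060 for Pclo 1419392_at, 1455373_at and 1452423_at. The methods' t-test called 0 members. The causes of the changes below were not tested.

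With the replicate number as a block, which follows the pairing, the unadjusted count over all probe sets was 887 in place of 209, and 4 in place of 2 among the other terminal genes. The block changed no member's call. With the block and an intensity trend these counts were 779 and 5, and 6 probe sets, none of them a member, passed an adjusted p of 0.05. Without a filter 1144 probe sets had an unadjusted p under 0.05, with a filter at 8 127, with array weights 436, and on leaving out single arrays 209 to 560, the highest without OC2-KO replicate 2. Among the other terminal genes the count was 1 without a filter, 1 with a filter at 8, 1 without both arrays of number 3, 1 with an intensity trend, 1 with a robust trend, 4 with array weights, and 0 to 3 on leaving out single arrays, the lowest without OC2-WT replicate 2. Adjusted calls over all probe sets numbered 0 whichever single array was left out.

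Member probe sets whose genotypes did not overlap numbered 1 of 23 without a filter (4.93% of all probe sets), 2 of 19 without number 3 (18.2%), 1 of 20 without number 1 (19.6%) and 6 of 20 without number 2 (20.9%). The 1 without a filter was Bsn 1422023_at, with OC2-KO higher. On leaving out single arrays they numbered 0 to 4: 4 without OC2-KO replicate 2 (15.4%), 2 without OC2-WT replicate 3 (11.5%), 1 without OC2-WT replicate 1 (11.9%), 1 without OC2-WT replicate 2 (8.18%), and 0 for each of the other 2, OC2-KO replicates 1 (8.87%) and 3 (8.61%). Without number 2, 1 member had an unadjusted p under 0.05 (limma), beside 1.2% of all probe sets. It was Rims2 1443215_at, which passed the filter there only through OC2-WT (means of 5.80 in OC2-KO and 7.17 in OC2-WT), so its direction was fixed by its selection.

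Signs turned as follows, as log2 differences. Egflam was at -0.038 under quantile normalization, -0.044 with array weights, -0.069 with a sex term and -0.090 without number 1. Rims2 1436470_at was at 0.011 under median centring, 0.048 with a sex term and 0.015 without number 1. Rims2 1422809_at was at -0.037 with a sex term and -0.054 without number 3, and Rims2 1450761_s_at at 0.0092 with a sex term and 0.050 without number 3. Cabp4 1456936_at was at 0.12 with array weights. Cacnb2 1456401_at was at 0.017 without number 3 and Cacnb2 1452476_at at 0.33 without number 1. Cacna1f was at -0.16 without number 1 and -0.041 without number 2, Cacna2d4 1457703_at at 0.017 without number 1, and Cacna2d4 1442863_at at 0.037 without number 2.

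Leaving out single arrays gave ranges of -0.59 to 0.23 for Cabp4 1425878_at, -0.35 to 0.056 for Cabp4 1456936_at, -0.25 to 0.22 for Cacna1f, -0.10 to 0.26, -0.55 to 0.19 and -0.26 to 0.077 for Cacna2d4 1441084_at, 1442863_at and 1457703_at, -0.54 to 0.52 for Cacnb2 1452476_at, -0.32 to 0.21 for Cacnb2 1456401_at, -0.20 to 0.17 for Egflam and -0.011 to 0.25 for Elfn1. For Rims2 they were -0.32 to 0.32 on 1422809_at, -0.068 to 0.065 on 1436470_at and -0.15 to 0.056 on 1450761_s_at. Where an array was left out, 2 arrays stood for its genotype.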
